A study of Mus musculus with 22 samples.

Results

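NAT10, nucleolin and RRS1 are proteins of the nucleolus, the part of the nucleus in which ribosomal RNA is transcribed, trimmed, modified and packed with ribosomal proteins. NAT10 is the acetyltransferase that turns cytidine into N4-acetylcytidine (ac4C) in ribosomal RNA and tRNA, and it is also held to write the mark on mRNA. Nucleolin, encoded by Ncl, is one of the most abundant nucleolar proteins and binds ribosomal RNA precursors and chromatin. The introns of Ncl also carry small nucleolar RNAs, which guide chemical changes of other RNAs. RRS1 works in the assembly of the large ribosomal subunit, where it helps to bring the 5S ribonucleoprotein into the precursor.

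The 3 genes were followed through the acRIP-seq and input libraries of mouse kidney, in which RNA fragments with ac4C were pulled down with an antibody (IP) and sequenced beside a library of the same animal made without the pull-down (input). The db/db group had 6 mice, which carry the mutant leptin receptor allele db on both chromosomes and become obese and diabetic, and the db/m group had 5 heterozygous mice, which served as nondiabetic controls. The mice were male and were obtained at 8 weeks of age, and no drug or virus is named for these animals. The leptin receptor is changed in the whole animal, so kidney, fat, liver and brain differ between the groups at once. The age at which these kidneys were taken is not given in the sources used here.

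The peaks were chosen by gene name alone. Of 9857 peaks in the deposited table, 13 carry one of the 3 names, namely 1 of Nat10, 10 of Ncl and 2 of Rrs1. The table joins the peak list of each genotype, so a region in both lists appears as 2 peaks that share most or all of their reads. Merging peaks that overlap left 8 regions, and each is represented here by its longer peak. Reads in all peaks summed to 7577171 to 9862426 in the db/db IP libraries, 9125099 to 10293757 in the db/m IP libraries, 3160992 to 3352535 in the db/db input libraries and 3151035 to 3265239 in the db/m input libraries. The level of a region is given as CPM, its reads scaled to a fixed total of reads in peaks with TMM factors. Since the tissue is a mixture of cells, fewer cells that hold a transcript and less of it per cell cannot be told apart.

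The regions have the following places on the GRCm38 assembly. Nat10 lies on the minus strand of chromosome 2 from 103721258 to 103762954, and its only peak, found in the db/m list alone, covers the 652 bases from 103725109 to 103725760, which lie 37194 to 37845 bases downstream of the gene start and so in the last part of the gene. Rrs1 lies on the plus strand of chromosome 1 from 9545408 to 9547455, and its peak covers 9546298 to 9546654 (357 bases) in the db/m list and 9546328 to 9546654 (327 bases) in the db/db list. Ncl lies on the minus strand of chromosome 1 from 86344719 to 86359455, and its 6 regions are numbered here from the start of the gene to its end.

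Region 1 of Ncl, from 86358714 to 86358864, was listed in db/db mice only, and region 6, from 86349726 to 86349875, in db/m mice only. Region 2 runs from 86357448 to 86358684, region 3 from 86356178 to 86357328, region 4 from 86352624 to 86355031 and region 5 from 86350595 to 86351401, and these 4 were in both lists. Region 3 contains the whole of Snord82 (86356260 to 86356327), and region 5 the whole of Snora75 (86351170 to 86351285), a box C/D and a box H/ACA small nucleolar RNA of the Ncl introns. Reads of these RNAs or of unspliced Ncl RNA cannot be told apart from reads of Ncl mRNA in these regions. According to the paper, RNA for acRIP-seq was first selected for mRNA on oligo(dT) beads. How much of the small nucleolar RNAs or of unspliced RNA remained after that step was not tested. No other RefSeq gene and no peak of another gene overlapped the 8 regions. Exon and intron borders were not used here, and the regions are long enough to hold both.

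The authors' fold enrichment of IP over input, a linear ratio that comes with each peak, was 18.5 and 18.7 for region 5 of Ncl in its db/m and db/db peaks, 6.44 and 6.79 for region 3, 2.89 and 2.40 for region 2, and 2.35 and 2.51 for region 4. It was 13.8 for region 1 and 6.05 for region 6, 11.7 and 10.5 for Rrs1, and 2.07 for Nat10. Peaks were called for an excess of IP reads, so a value over 1 is part of how they were found and not a result.

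Among the Ncl regions with many reads, the order of IP over input was the same in every animal. On the scale of log2 (IP CPM + 0.5) over (input CPM + 0.5), where 0 means that a region took the same share of the reads in peaks in both libraries, region 5 of Ncl stood at 1.46 ± 0.05 (SD, n = 11 animals), Rrs1 at 1.11 ± 0.28, region 3 of Ncl at 0.33 ± 0.09, region 2 at -0.28 ± 0.22, Nat10 at -0.49 ± 0.42 and region 4 of Ncl at -0.98 ± 0.16. The median over the 6724 peaks with a mean of at least 10 input reads was -0.02. Region 5 of Ncl exceeded 95.2% of those peaks and Rrs1 90.7%, whereas Nat10 exceeded 26.0% and region 4 of Ncl 6.81%.

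**Figure D1:**
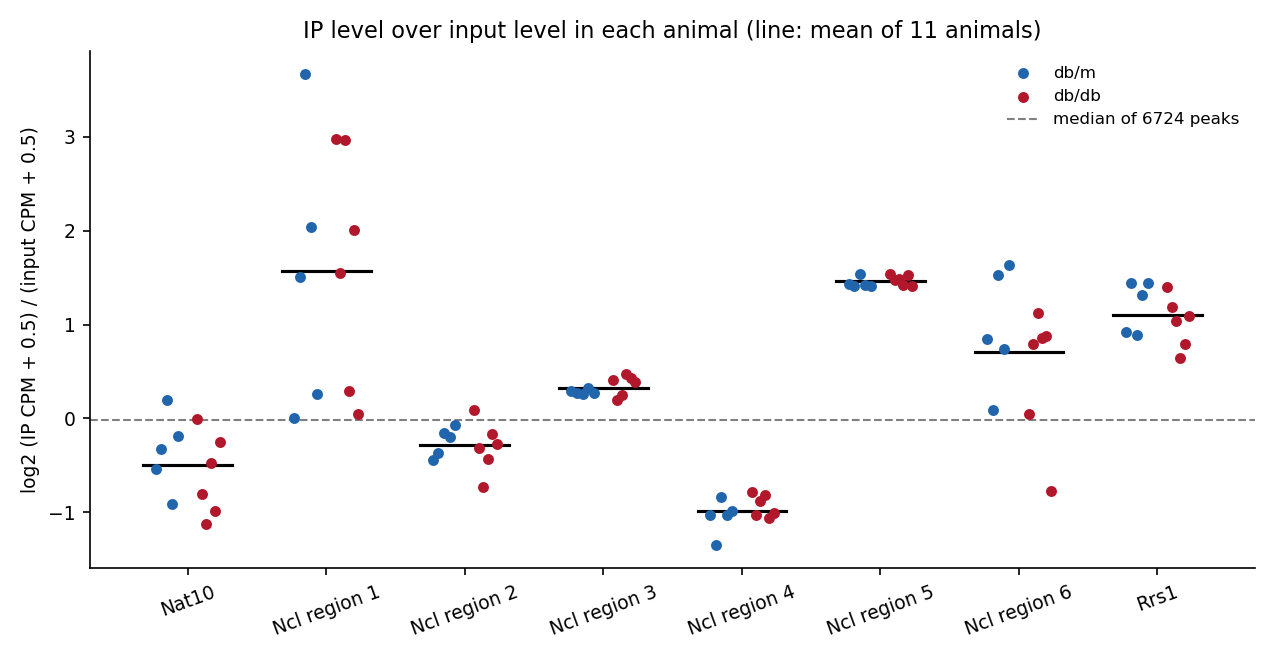
Log2 ratio of IP level to input level (y axis, CPM with 0.5 added) for the 8 regions (x axis), with 1 point for each of 5 db/m and 6 db/db animals, a line at the mean of 11 animals and a dashed line at the median of 6724 peaks. The points of Ncl region 5 lie together near 1.46 and those of region 4 near -0.98, while regions 1 and 6, which rest on few reads, scatter widely.

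IP reads per input read thus differed between regions that lie within the borders of Ncl, where regions 3 and 5 can hold reads of other RNAs. The regions were called as peaks on IP over input in these same libraries. The test below therefore describes how alike the animals were and is no independent support for the differences. Among regions 2 to 5, each of the 6 pairs differed in the same direction in 11 of 11 animals. On the log2 scale the difference was -2.44 ± 0.14 for region 4 minus region 5, -1.74 ± 0.21 for region 2 minus region 5, -1.14 ± 0.10 for region 3 minus region 5 and 1.31 ± 0.15 for region 3 minus region 4 (two-sided exact sign-flip permutation test over animals, p = 0.000977 for each pair, the smallest that 11 animals allow, adjusted p = 0.00163 over the 15 pairs of Ncl regions). The regions with the small nucleolar RNAs, 3 and 5, were the ones with most reads. Per kilobase of the interval, region 3 held 2900 IP and 2160 input CPM, region 5 held 1380 and 463, region 4 held 93.9 and 172, and region 2 held 52.4 and 59.7. Rrs1 held 414 IP and 176 input CPM per kilobase, and Nat10 35.4 and 44.7. These are mean levels over 11 animals per base of the interval, with any intron counted.

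In Rrs1, the IP level was lower in db/db kidneys. The 6 db/db animals had 1032, 1124, 1070, 1061, 1100 and 1145 IP reads in the region, and the 5 db/m animals had 1218, 1911, 1304, 2043 and 1763. After scaling, db/db animals ranged only from 117.9 to 128.5 CPM, and db/m animals from 123.9 to 222.3. The db/m animals 2, 4 and 5 stood above 190 CPM, while db/m animal 1 lay within the db/db range at 123.9 and db/m animal 3 above it at 143.2, so the groups overlapped in CPM.

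The mean IP level of Rrs1 was 123 ± 3.55 CPM (SD, n = 6) in db/db and 178 ± 41.9 CPM (SD, n = 5) in db/m. The log2 fold change was -0.53 (SE 0.16, 95% interval -0.86 to -0.20, adjusted p = 0.0486, edgeR quasi-likelihood test, Benjamini-Hochberg over 9857 peaks), and -0.54 (adjusted p = 0.0433) in the shorter peak of the db/db list. An exact permutation test over animals gave p = 0.0130 for the longer and 0.00866 for the shorter peak (two-sided, smallest p allowed 0.00433). Both values are before any correction for the 8 regions examined. By the rule for calls used here, an adjusted p under 0.05 with an absolute log2 fold change over 1, Rrs1 was not called. In IP, 333 of 9857 peaks (3.38%) were lower in db/db at an adjusted p under 0.05 with no demand on the fold. The pass of the longer peak at 0.05 was lost in 15 of 18 alternatives, and over all 18 the log2 fold change ranged from -0.61 to -0.43 and the adjusted p from 0.0169 (DESeq2) to 0.384. Among the 11 fits that left out 1 animal, the fit without db/m animal 1 kept it (adjusted p = 0.0187) and the other 10 lost it (adjusted p up to 0.150). The shorter peak lost its pass in 13 of 17 alternatives (adjusted p of 0.0133 to 0.390 over the 17), and among the fits that left out 1 animal it passed without db/m animal 1 (adjusted p = 0.0166) and without db/m animal 3 (adjusted p = 0.0490).

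Input reads of Rrs1 were lower in db/db on average, but not beyond the spread between animals. They numbered 147, 163, 205, 231, 209 and 168 in db/db and 187, 219, 221, 255 and 210 in db/m. The means were 56.8 ± 10.8 and 69.8 ± 7.86 CPM, with a log2 fold change of -0.30 (SE 0.14, 95% interval -0.60 to 0.0013, edgeR adjusted p = 0.206, exact permutation p = 0.0563). The IP level relative to input changed by -0.19 (SE 0.14, 95% interval -0.45 to 0.08, edgeR adjusted p = 0.808) in a fit over 22 libraries with a term for each animal. This change ranged from -0.27 to -0.11 when each animal was left out (edgeR adjusted p of 0.781 to 0.932). That fit gave no weight to the peak's own spread between animals. With limma on the log2 ratio of each animal, the change was -0.18 (SE 0.19, limma adjusted p = 0.874). The ratio was 1.03 ± 0.27 in db/db and 1.20 ± 0.28 in db/m on the log2 scale (exact permutation p = 0.303). A difference in IP reads per input read of Rrs1 was thus not detectable with this number of animals.

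**Figure D2:**
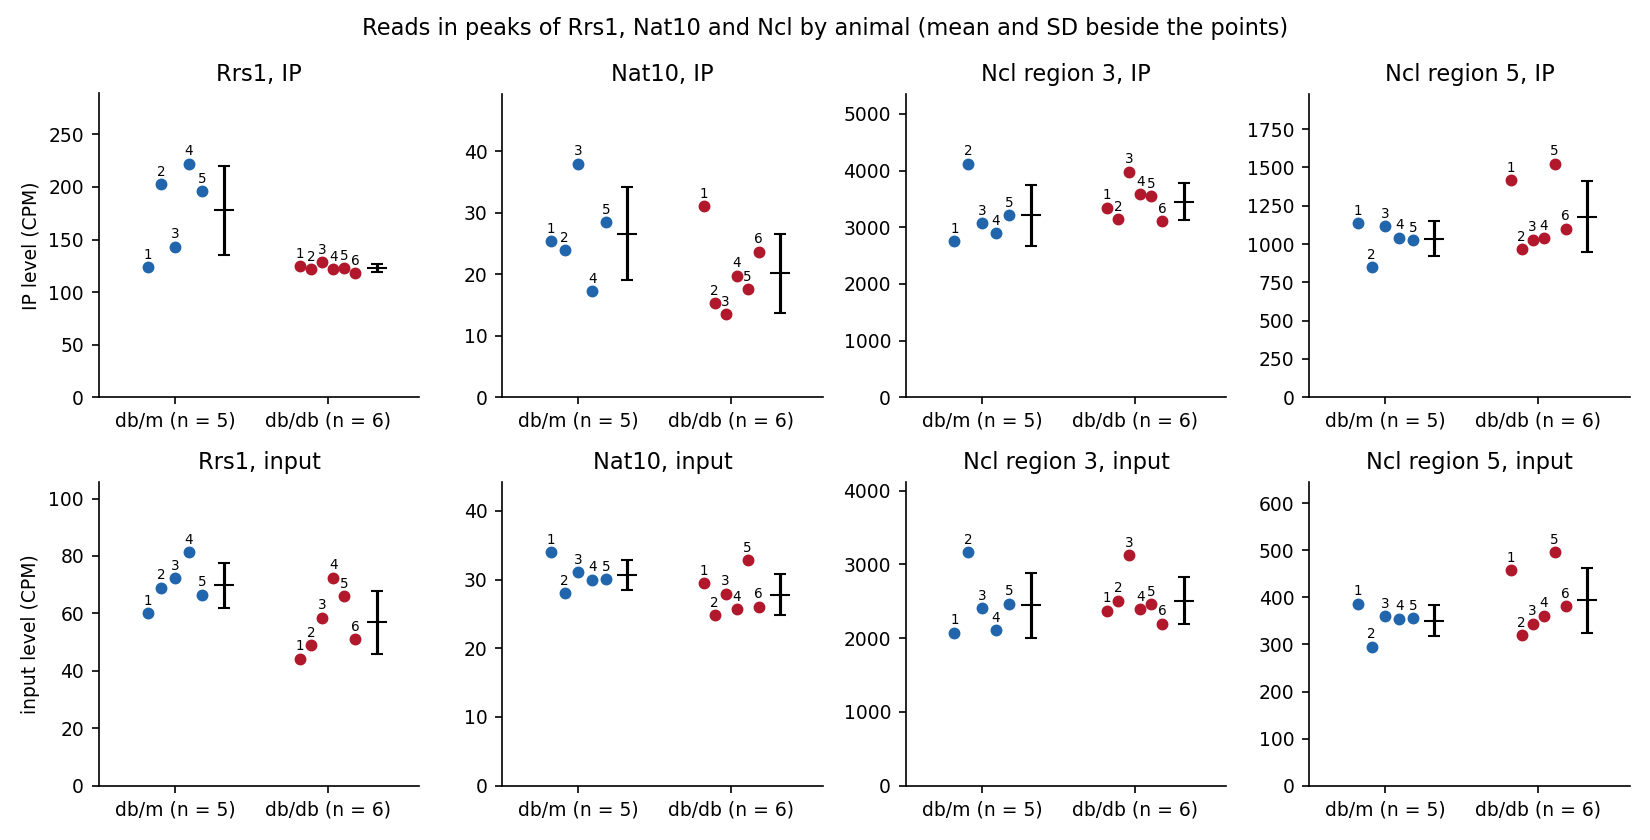
IP level (upper row) and input level (lower row) in CPM of Rrs1, Nat10 and Ncl regions 3 and 5 in each animal (points, with the animal's number), with the mean and SD of 5 db/m and 6 db/db animals beside them. The 6 db/db points of Rrs1 IP lie between 117.9 and 128.5 while db/m animals 2, 4 and 5 lie above 190, with db/m animal 1 at 123.9 among the db/db points, and the groups overlap in every panel.

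Nat10, the gene of the enzyme itself, had few reads and no detectable difference between the genotypes. IP reads numbered 257, 141, 112, 172, 157 and 230 in db/db and 249, 226, 346, 158 and 256 in db/m. The highest count was that of db/m animal 3 and the lowest that of db/db animal 3, and the remaining counts of the groups were interleaved. The IP level was 20.1 ± 6.44 CPM in db/db and 26.6 ± 7.59 CPM in db/m, a log2 fold change of -0.40 (SE 0.26, 95% interval -0.94 to 0.14, edgeR adjusted p = 0.402, exact permutation p = 0.156). When each animal was left out, this fold change ranged from -0.57 to -0.22, the latter without db/m animal 3 (edgeR adjusted p of 0.224 to 0.730). Without the animals over 1000 Lpl IP reads, which are described below, it was -0.76 (edgeR adjusted p = 0.293). The interval itself was found in the db/m list alone. Choosing it by the IP reads of 1 genotype can by itself make db/db look lower, in IP and in IP relative to input.

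Input reads over the Nat10 region, which measure Nat10 RNA over these 652 bases and not over the whole gene, numbered 98, 83, 98, 82, 104 and 86 in db/db and 106, 89, 95, 94 and 95 in db/m. They differed less between animals than the IP reads did. The level was 27.8 ± 2.98 CPM in db/db and 30.6 ± 2.18 CPM in db/m, with a log2 fold change of -0.14 (SE 0.13, 95% interval -0.42 to 0.14, edgeR adjusted p = 0.534, exact permutation p = 0.104). The upper end of 0.14 holds for this fit and these 652 bases only, with levels scaled to reads in peaks. Over the alternatives the input log2 fold change ranged from -0.19 to -0.05. Without the animals over 40 Sftpc IP reads, also described below, it was -0.05 with a larger SE of 0.20. According to the paper, Nat10 mRNA was raised in its transcriptome data. Whether the whole Nat10 transcript differed between the genotypes was not tested here. The change of IP relative to input was -0.26 (SE 0.23, 95% interval -0.71 to 0.19, edgeR adjusted p = 0.857). When each animal was left out, it ranged from -0.39 (without db/m animal 4) to -0.12 (without db/m animal 3).

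Ncl was among the most heavily read genes of the table. Region 3, which ranked 23 among 9857 peaks by mean IP reads, had 27697, 28992, 33126, 31201, 31736 and 30229 IP reads in db/db and 27115, 38895, 28020, 26565 and 28878 in db/m. The db/m group held both the lowest value (animal 4) and the highest (animal 2). IP levels were 3450 ± 325 and 3213 ± 538 CPM, with a log2 fold change of 0.10 (SE 0.13, 95% interval -0.16 to 0.37, edgeR adjusted p = 0.721). When each animal was left out, this fold change ranged from 0.058 (without db/db animal 3) to 0.21 (without db/m animal 2), with edgeR adjusted p of 0.307 to 0.859. Input levels were 2511 ± 321 and 2445 ± 440 CPM (log2 fold change 0.04, SE 0.13, 95% interval -0.24 to 0.31, edgeR adjusted p = 0.895). The change of IP relative to input was 0.08 (SE 0.06, 95% interval -0.04 to 0.20, edgeR adjusted p = 0.842).

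The other well covered regions of Ncl did not pass the test either. Region 5 had 11729, 8941, 8570, 9030, 13652 and 10687 IP reads in db/db and 11166, 8004, 10175, 9577 and 9192 in db/m, and the db/db animals 1 and 5 were the highest. Its log2 fold change was 0.19 (SE 0.14, edgeR adjusted p = 0.494) in IP and 0.17 (SE 0.13, edgeR adjusted p = 0.436) in input. Region 4 had 2050 to 2214 IP reads in db/db and 1636 to 2125 in db/m, with log2 fold changes of 0.21 (SE 0.13, edgeR adjusted p = 0.355) in IP and 0.11 (SE 0.10, edgeR adjusted p = 0.503) in input. Taken alone, the exact permutation test gave region 4 p = 0.0346 in IP and 0.0476 in input, before any correction for the 8 regions examined. Region 2 had 473 to 654 IP reads in db/db and 384 to 1064 in db/m, with log2 fold changes of -0.10 (SE 0.23) and -0.02 (SE 0.23), and it was db/m animal 2 that held the 1064 reads.

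Regions 1 and 6 were thinly covered. Region 1 had 29, 18, 29, 1, 26 and 10 IP reads in db/db and 0, 18, 55, 15 and 12 in db/m, and at most 3 input reads in any library. Although this peak is in the db/db list alone, the highest count was in a db/m animal, number 3. Region 6, of the db/m list alone, had 5 to 26 IP reads in db/db and 14 to 41 in db/m. The presence of a peak in 1 list was therefore not matched by reads in 1 genotype in either region.

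Across the 13 peaks of the 3 genes, 0 were called in IP, 0 in input and 0 in IP relative to input. At an unadjusted p under 0.05 by edgeR, 2 of the 13 passed in IP, the overlapping peaks of Rrs1, against 2089 of 9857 peaks (21.2%) in the whole table, 0 passed in input (2413 peaks, 24.5%) and 0 in IP relative to input (666 peaks, 6.76%). DESeq2 also called 0 of the 13 in each comparison. Over the whole table, edgeR called 327 of 9857 peaks (3.32%) in IP, 389 (3.95%) in input and 2 (0.0203%) in IP relative to input.

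**Figure D3:**
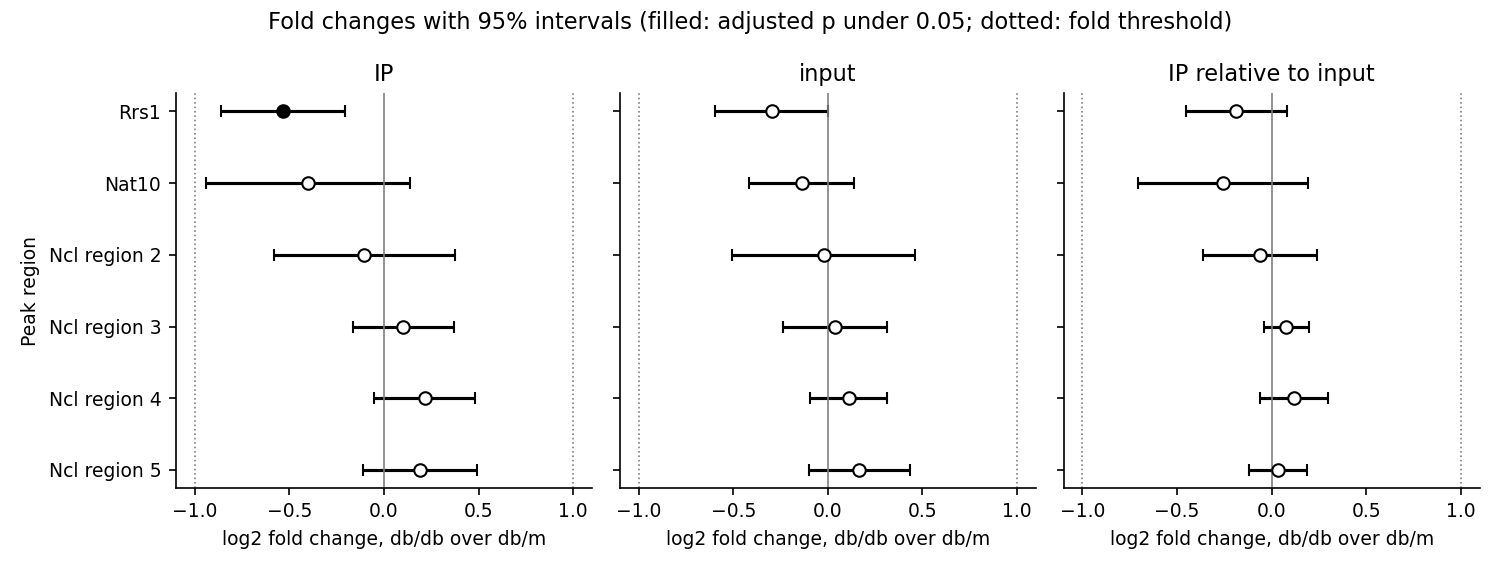
Log2 fold change of db/db over db/m (x axis) with 95% intervals for 6 regions of Rrs1, Nat10 and Ncl (y axis) in IP, input and IP relative to input, with dotted lines at the fold threshold. Rrs1 in IP, at -0.53, is the 1 point with an adjusted p under 0.05, and all intervals lie within the fold threshold of 1 on either side.

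Animals differed in how Ncl reads were spread over its regions, with both genotypes among the high and the low values. Region 3 took 65.5% to 78.4% of the IP reads of the 6 regions and region 5 took 16.1% to 28.4%. The number of IP reads in region 3 per read in region 5 was 4.86 in db/m animal 2 and 3.87 in db/db animal 3, the highest of the 11, and 2.33 in db/db animal 5, the lowest. In input the same 3 animals held the extremes, with 10.7, 9.10 and 4.96. The logarithms of this ratio in IP and input had r = 0.957 over 11 animals, both libraries being made from the RNA of the same animal. Input levels of regions 2 and 3 rose and fell together (r = 0.901), while those of regions 3 and 5 did not (r = -0.433). The ratio was 3.01 ± 0.62 in db/db and 3.19 ± 0.97 in db/m in IP (exact permutation p = 0.771) and 6.58 ± 1.63 and 7.13 ± 2.10 in input (exact permutation p = 0.628).

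**Figure D4:**
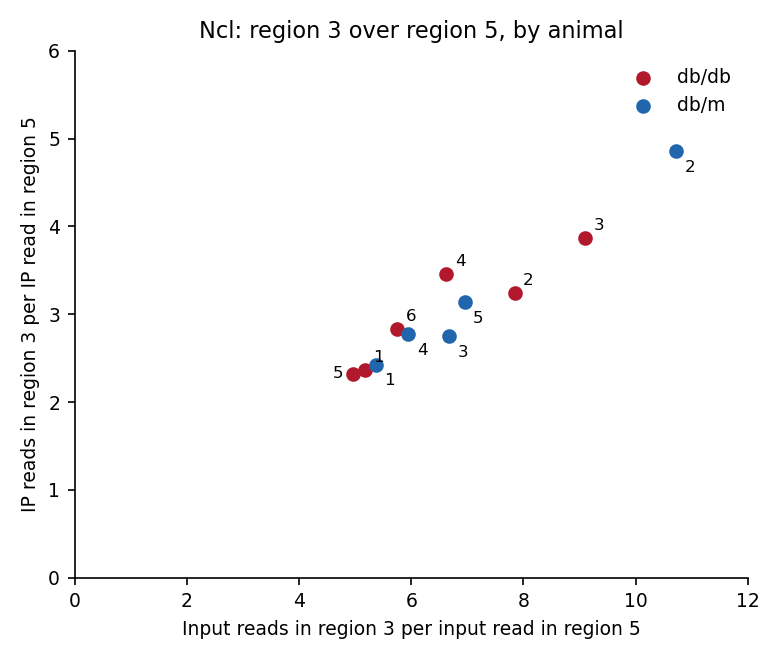
IP reads in Ncl region 3 per IP read in region 5 (y axis) against the same ratio of input reads (x axis), with 1 point and number per animal, db/db in red and db/m in blue. Both ratios are highest in db/m animal 2 (4.86 and 10.7) and lowest in db/db animal 5 (2.33 and 4.96), and the genotypes are mixed along the line.

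How far the IP level of a region followed its input level over the 11 animals also differed. Pearson's r of the log2 levels was 0.987 for region 5, 0.906 for region 3 and 0.868 for region 2 of Ncl, 0.615 for Rrs1, 0.502 for region 4 of Ncl and 0.361 for Nat10. With the mean of each genotype removed, it was 0.985, 0.922 and 0.871 for regions 5, 3 and 2, but 0.316 for Rrs1, 0.183 for region 4 and 0.159 for Nat10. These values are descriptions, and their order was not that of the read numbers, since region 4 has more reads than region 2.

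The 3 genes were also set against each other and against the rest of the table. Over the 11 IP libraries, r was -0.29 between Nat10 and Ncl, 0.11 between Nat10 and Rrs1 and 0.03 between Ncl and Rrs1, each gene by its peak with most IP reads. With the mean of each genotype removed, the values were -0.17, -0.41 and 0.44, so that between Nat10 and Rrs1 changed sign and that between Ncl and Rrs1 rose. Among peaks with a mean of at least 50 IP reads, those most like Nat10 were in Patj (r = 0.897), Paf1 (0.880) and Dnajc21 (0.864). Those most like Ncl were in Mical3 (0.936), Cttnbp2nl (0.923) and Hnrnpul2 (0.922), and those most like Rrs1 in Clint1 (0.892), Mapt (0.876) and Ammecr1 (0.863). With genotype means removed, the values were 0.875, 0.930 and 0.840 for the genes like Nat10, 0.947, 0.914 and 0.927 for those like Ncl, and 0.752, 0.698 and 0.694 for those like Rrs1. The first values are the highest of 6888, 6881 and 6887 values for Nat10, Ncl and Rrs1, over libraries that share depth and tissue makeup.

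The other genes of ribosome assembly were taken from 9 lists that name 169 genes, of which 87 have a peak. Without Nat10, Ncl and Rrs1 the lists hold 190 peaks in 84 genes. In IP, 4 of these peaks were higher in db/db at an adjusted p under 0.05 and 0 were lower, against 303 (3.07%) higher and 333 (3.38%) lower in the table as a whole. In input, 4 were higher and 3 lower, against 526 (5.34%) and 585 (5.93%). In IP relative to input 0 of the 190 passed by edgeR, where 3 of 9857 peaks (0.0304%) passed in all and 0 by DESeq2, and 12 of the 190 had an unadjusted p under 0.05, beside the 6.76% of the whole table. Their median log2 fold change was 0.11 in IP and 0.10 in input, beside 0.0038 and -0.0056 over all peaks.

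The higher peaks belonged to few genes. Of these, Ftsj3 had no call and was picked out after its values were seen, as was Pno1 among the lower peaks. Utp20, a large protein of the small subunit processome, was the 1 gene of the lists that met the rule for calls. Its 181 bases on chromosome 10 (88749342 to 88749522) had an IP level of 371, 237, 189, 192, 185 and 195 CPM in db/db and 81.2, 53.2, 86.8, 103 and 104 CPM in db/m. The log2 fold change of Utp20 was 1.41 (SE 0.21, edgeR adjusted p = 0.000308) in IP and 1.28 (SE 0.16, edgeR adjusted p = 2.45e-05) in input, and the change of IP relative to input was 0.14 (SE 0.10, edgeR adjusted p = 0.808).

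Ftsj3, a factor of pre-ribosomal RNA processing, rose in IP by 0.58 (SE 0.16, edgeR adjusted p = 0.0346) in the peak of the db/db list. IP levels there were 58.5 to 80.4 CPM in db/db and 39.0 to 51.7 CPM in db/m. Its log2 fold change was 0.24 (SE 0.14, edgeR adjusted p = 0.282) in input and 0.35 (SE 0.15, edgeR adjusted p = 0.600) in IP relative to input. Rpl5, a ribosomal protein that travels with 5S RNA and RPL11 and is brought into the precursor with the help of RRS1, rose by 0.59 (SE 0.17, edgeR adjusted p = 0.0462) in IP and 0.49 (SE 0.11, edgeR adjusted p = 0.0072) in input. The change of IP relative to input of Rpl5 was 0.10 (SE 0.10, edgeR adjusted p = 0.868). Rpl11, its partner, had log2 fold changes of 0.38 (SE 0.17, edgeR adjusted p = 0.192) in IP and 0.23 (SE 0.14, edgeR adjusted p = 0.339) in input. Rpl5 and Npm1 have near-identical pseudogene copies, so reads assigned to them are less certain.

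In input, Npm1, which encodes nucleophosmin, another abundant nucleolar protein, rose by 0.33 (SE 0.10, edgeR adjusted p = 0.0492). Nhp2, a core protein of box H/ACA particles, fell by 0.81 (SE 0.15, edgeR adjusted p = 0.00127), from 45.2 ± 5.67 CPM in db/m to 25.8 ± 4.85 CPM in db/db. Pno1, which works on the small subunit, fell by 0.42 (SE 0.13, edgeR adjusted p = 0.0489). The adjusted p of Ftsj3 and Rpl5 in IP exceeded 0.05 in 9 and 11 of 18 alternatives and that of Npm1 and Pno1 in input in 13 of 18 and 12 of 17, each in the peak of the db/db list. Utp20 kept an adjusted p under 0.05 in 18 of 18 in both libraries. Its log2 fold change in input ranged from 0.99 to 1.36 over them, and the low end is under the fold threshold of 1. In input, Rpl5 kept an adjusted p under 0.05 in 18 of 18 and Nhp2 in 17 of 18.

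Among the abundant members of each list that passed no test, Ubtf, the Pol I transcription factor, had 504 ± 49.9 and 494 ± 50.02 IP CPM in db/db and db/m (log2 fold change 0.03, edgeR adjusted p = 0.945). Fbl, the methyltransferase of box C/D particles, had 152 ± 12.2 and 162 ± 20.4 IP CPM (-0.09, edgeR adjusted p = 0.765). Rrp1, Las1l and Pes1, of large subunit assembly like Rrs1, had log2 fold changes of 0.18, 0.05 and 0.21 in IP with edgeR adjusted p of 0.426, 0.868 and 0.427. Thumpd1, the cofactor with which NAT10 acetylates tRNA, has no peak.

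**Figure D5:**
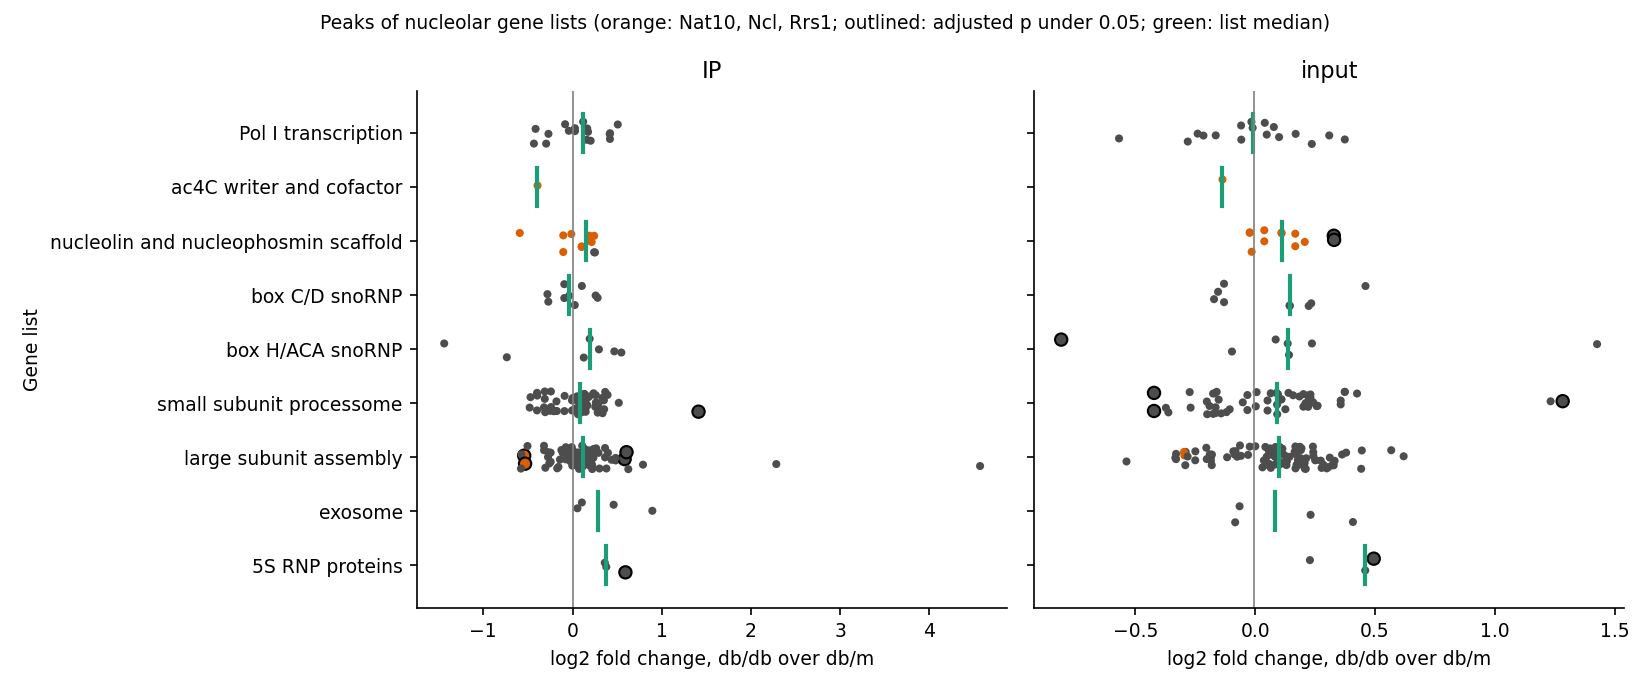
Log2 fold change of db/db over db/m (x axis) in IP and input for every peak of 9 nucleolar gene lists (y axis), with Nat10, Ncl and Rrs1 in orange, peaks with an adjusted p under 0.05 larger and outlined, the list median as a green bar and the median of all peaks as a grey line. Both Rrs1 peaks lie to the left of 0 in IP at -0.53 and -0.54, Utp20 lies at 1.41, and points far out without an outline are peaks of few reads.

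Some marker genes of the tissue also differed between the genotypes. Of 12 kidney tubule and podocyte markers, 9 have a peak (Cubn, Umod and Slc12a3 have none), and Lrp2, the megalin gene of the proximal tubule, is the most abundant. Their summed IP level was 654 to 1411 CPM in db/db and 1321 to 1395 CPM in db/m (exact permutation p = 0.0260), and their summed input level 1040 to 2376 CPM and 2156 to 2295 CPM (exact permutation p = 0.0260). At an adjusted p under 0.05, 2 of the 9 genes fell and 1 rose, in IP and in input alike, and the other 6 did not pass. Over all 4909 genes, 3.59% had a peak that was lower and 3.3% one that was higher in IP, and 5.93% and 5.72% in input. Lrp2 fell by 0.86 in IP (edgeR adjusted p = 0.0216) and fell by 0.91 in input (edgeR adjusted p = 0.00755). Slc34a1, a phosphate transporter of the proximal tubule, fell by 0.97 in IP (edgeR adjusted p = 0.0266) and fell by 1.05 in input (edgeR adjusted p = 0.0141). Aqp2, the water channel of the collecting duct, rose by 1.56 in IP (edgeR adjusted p = 0.00132) and by 1.38 in input (edgeR adjusted p = 7.82e-05).

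Of 7 adipocyte markers 3 have a peak, and Lpl, which encodes lipoprotein lipase and is not confined to adipocytes, has most of their reads. Their summed level was 2841, 3053 and 2701 IP CPM in db/m animals 1, 2 and 4, 15.9 and 14.0 in db/m animals 3 and 5, and 321 in db/db animal 6, with 4.08 to 9.91 in the remaining db/db animals. In input it was 67.7, 46.0 and 70.2 CPM in db/m animals 1, 2 and 4, and 16.7 and 13.0 CPM in db/m animals 3 and 5. The input means were 5.41 ± 1.15 CPM in db/db (at most 6.67) and 42.7 ± 27.2 CPM in db/m (two-sided exact permutation p = 0.00433). In IP relative to input, 1 of the 3 adipocyte marker peaks was called, lower in db/db. Lpl itself fell by 4.88 on the log2 scale in IP (edgeR adjusted p = 0.0404) and fell by 3.03 in input (edgeR adjusted p = 2.96e-05). The defining marker Adipoq had at most 9 and Plin1 at most 20 IP reads in any library. In IP, db/m animals 2 and 4 were high in both Lpl and Rrs1, db/m animal 1 in Lpl and db/m animal 5 in Rrs1. Of 5 lung markers 4 have a peak, led by Sftpc, and their summed IP level was 46.6, 33.2, 32.5 and 11.2 CPM in db/db animals 1 to 4 and at most 0.424 in the other animals, with at most 0.951 CPM in input. Rrs1 IP levels in db/db animals 1 to 4 (121.6 to 128.5 CPM) lay beside those of animals 5 and 6 (122.9 and 117.9 CPM).

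With the 4 animals over 1000 Lpl IP reads left out, 5 db/db and 2 db/m animals remained and the log2 fold change of Rrs1 in IP was -0.43 (edgeR adjusted p = 0.258). With the 4 animals over 40 Sftpc IP reads left out, 2 db/db and 5 db/m animals remained and it was -0.56 (edgeR adjusted p = 0.384). Immune markers (1 of 9 with a peak, C1qa) summed to 13.4 ± 10.3 and 13.9 ± 6.31 IP CPM in db/db and db/m, endothelial and fibroblast markers (3 of 8, led by Kdr) to 50.5 ± 16.0 and 60.9 ± 11.4 IP CPM and to 33.7 ± 8.16 and 44.5 ± 3.78 input CPM (exact permutation p = 0.0217 in input), and 0 of 7 proliferation markers have a peak. The part of these markers' cell types in the Rrs1 difference was not tested, nor was the source of the Lpl and lung marker reads in the IP libraries.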

How the data were processed

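An IP and an input library were made from kidney RNA of each of 11 mice, 6 db/db and 5 db/m, assigned to genotype and animal from the sample titles. The 3 genes, the gene lists and the marker lists were chosen with earlier results of these data known. The submitters' processing notes name the build GRCm38, and the aligner, the peak caller and the counting tool are not given in the sources used here. The authors deposited 1 table of peaks with whole-read counts per peak and library, not normalized and not separated by strand. Their fold enrichment of IP over input is a deposited linear ratio. The deposited log2 change, p-value and FDR between genotypes are the authors' own comparison and were not used, nor were the p-value and FDR of each peak. Starts were moved by 1 base to count from 1. Distances, gene borders and overlaps were taken from RefSeq genes of GRCm38.p6.

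Counts were fitted over all 9857 peaks in R 4.3.3 with edgeR 4.0.16 (glmQLFit and glmQLFTest, TMM), separately for IP and input, and for IP relative to input over 22 libraries with an animal term and the interaction of library type and genotype. In that last fit a peak's own spread between animals got no weight, so its SE and interval can be too narrow for a single peak. With limma on the log2 ratios, the SE was 0.19 for Rrs1, 0.24 for Nat10 and 0.10 for Ncl region 3. In the edgeR fit it was 0.14, 0.23 and 0.06. For Ncl region 2 it was 0.14 with limma and 0.15 with edgeR. p-values were adjusted by Benjamini-Hochberg, and a call needed an adjusted p under 0.05 with a log2 fold change over 1 in size. Single regions were tested by two-sided exact permutation over 462 splits of the animals, on log2(CPM + 0.5), and pairs of Ncl regions by sign flips over 11 animals, in Python 3.11.15 with scipy 1.17.1. IP and input of 1 animal belong together by title, and their deviations from the group means correlated at 0.27 to 0.82. Genes named beside the 3 are list genes called in any comparison, the 3 most abundant in IP of each list (a selection is printed), Thumpd1, and the 3 genes with the highest r over IP libraries on log2(CPM + 1) for each gene. Of the ribosome biogenesis lists only Utp20 was called, and Ftsj3 and Pno1, named for an adjusted p under 0.05 alone, were chosen after their values were seen. Alternatives were DESeq2 1.42.0, limma 3.58.1, library sizes without TMM, a mean of at least 10 reads, 1 peak per group of overlapping peaks, pseudocounts of 0.1 and 2, a block of animal numbers and each animal left out. Leaving out animals with high Lpl or Sftpc IP reads and dropping the animal term were added after seeing the data. The fits were also run on simulated counts, and nothing stated here rests on those runs. A count of 0 allows up to 3 reads, or 0.305 to 0.362 CPM in IP and 0.857 to 0.981 CPM in input, and such limits cover counting error only. Sequences of the regions were not used here.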

Additional observations from a re-analysis of the deposited data

Results flagged for a closer look

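In each of the 8 regions, the values of each genotype were searched for 1 animal that stood apart from the rest by more than Dixon's 95% limit. Among 48 groups of values 4 such animals were found, where chance alone gives about 2.4. The input level of Ncl region 2 was 135.8 CPM in db/m animal 2, and 49.1 to 73.8 CPM in the other db/m animals. The input level of Ncl region 3 was 3129 CPM in db/db animal 3, and 2196 to 2508 CPM in the other db/db animals. These are also the 2 animals with the highest ratio of region 3 to region 5 reads. The log2 IP over input of Ncl region 5 was 1.54 in db/m animal 3, and 1.41 to 1.43 in the other db/m animals. The input level of Ncl region 1 was 0.910 CPM, or 3 reads, in db/db animal 6, and 0 to 0.316 CPM in the other db/db animals.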

How the results depend on the processing

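None of the 13 peaks of Nat10, Ncl and Rrs1 was called under any alternative run in the 3 comparisons. The pass of the longer Rrs1 peak in IP at an adjusted p under 0.05 was lost, with a log2 fold change of -0.50 with 1 peak per group of overlapping peaks, -0.44 without TMM, -0.49 with the replicate block, -0.43 without the animals high in Lpl, -0.56 without those high in Sftpc, and -0.61 to -0.44 over the 11 fits that left out 1 animal (lost in 10, kept without db/m animal 1, and for the shorter peak also without db/m animal 3). Animal numbers do not pair the genotypes (same-numbered animals correlated at -0.40 to 0.51), and the block gave 446 called peaks in IP and 459 in input. With 1 peak per group, 207 peaks were called in IP and 259 in input, since fewer peaks were tested. Without the animals high in Sftpc 167 and 250 were called, with fewer animals in the fit. The 2 peaks called in IP relative to input became 0 with DESeq2, 0 with limma, 1 with limma and the replicate block, 0 with a mean of at least 10 reads, 0 without the animal term (no replicate block), and 1 to 5 when each animal was left out, and the cause was not tested.

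Values near 0 changed sign, and the cause was not tested. Ncl region 2 in IP became 0.039 without the animals high in Lpl, 0.028 with the replicate block, and -0.22 to 0.16 when each animal was left out, positive without db/m animal 2. In input it became 0.26 without the animals high in Lpl, 0.052 without TMM, 0.10 with the replicate block and -0.15 to 0.31 when each animal was left out, and relative to input -0.14 to 0.017. Ncl region 3 in input became -0.067 without the animals high in Sftpc and -0.028 to 0.15 when each animal was left out. Ncl region 1 minus region 5 in log2 IP over input, 0.11 as computed first, was -0.69 with a pseudocount of 2 CPM and -0.093 to 0.26 when each animal was left out. Region 1 has at most 3 input and 0 to 55 IP reads. The 6 differences among Ncl regions 2 to 5 kept their direction and passed under all 14 alternatives each. Counting error limits Nat10 (82 to 106 input reads) and Ncl regions 1 and 6.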
